A study of Mus musculus with 7 samples.

Results

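The miR-34 and miR-449 microRNAs were followed through mouse testis in culture, in prepuberal testis and in adult testis. The members were all rows of the deposited miRNA table named miR-34a, miR-34b, miR-34c or miR-449, every listed arm included, which gave 7 of the 331 listed miRNAs. They were listed as mmu-miR-34a-5p, mmu-miR-34b-5p, mmu-miR-34b-3p, mmu-miR-34c-5p, mmu-miR-34c-3p, mmu-miR-449a-5p and mmu-miR-449c-5p, and are named here without the species prefix. Other arms of these hairpins, and both arms of miR-449b, were not analysed here.

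MicroRNAs are short RNAs that pair through their seed, the bases near the 5′ end, with target messenger RNAs and reduce their translation or stability. The members come from several loci but share 1 seed on their 5p arms, so they are grouped as a single family. Transcription of miR-34a is a known target of the tumour suppressor p53 and occurs in many tissues. The miR-34b/c and miR-449 clusters are known from multiciliated epithelia and from male germ cells, where miR-34c accumulates from meiosis onwards. Mice that lack both clusters have defective spermatogenesis and efferent ducts.

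Small RNA libraries were prepared from total RNA under 100 bp of mouse testes. The strain was CD1, which is outbred, and the labels name no mutation or transgene. T6 and T10 were uncultured prepuberal testes taken at 6.5 and 10.5 days post-partum (dpp), which the age labels round to 6 and 10 days, and TAD was uncultured testis of an adult of 2 months. T6-12K and T6-12A were explants of 6.5 dpp testis after 12 days of culture, and T10-12K and T10-12A were explants of 10.5 dpp testis after the same time, all at the gas-liquid interface on agarose, at 34 °C in air with 5% CO2. The letter K marks medium with KSR, a serum replacement, and the letter A marks medium with AlbuMAX I, a lipid-rich bovine albumin. Each condition had 1 library, so no difference between conditions was tested. The intervals given are 95% intervals for counting error only and do not cover the spread between animals or explants. Values are counts per 1000000 reads on the listed miRNAs (CPM), unless reads are named.

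The mature sequences show why these arms form a family. The 5p arms printed here carried the seed GGCAGUG at bases 2 to 8, and the 3p arms of Mir34b and Mir34c carried a different seed, AUCACUA, so that they belong to the same hairpins but not to the same seed group. In the RefSeq sequences below, written 5′ to 3′, capitals mark the seed.
miR-34a-5p: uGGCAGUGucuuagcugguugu
miR-34b-5p: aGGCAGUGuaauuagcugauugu
miR-449a-5p: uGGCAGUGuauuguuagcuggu
miR-449c-5p: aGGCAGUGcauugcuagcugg
miR-34b-3p: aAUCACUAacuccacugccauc
miR-34c-3p: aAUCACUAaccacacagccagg
Of the 288 listed miRNAs with a RefSeq sequence, 4 had the first seed and 2 had the second, and all of them are printed above. The member miR-34c-5p had no entry in the reference used, so it is not printed and these counts leave it out. Outside the seed the arms diverged. miR-34a-5p and miR-34b-5p were 82.6% identical over their alignment, miR-449a-5p and miR-449c-5p were 81.8% identical, and miR-34a-5p and miR-449a-5p were 73.9% identical. Among the printed arms the closest pairs were 4 edits apart, and miR-34c-5p was not compared. The Mir34b hairpin is shown because both of its arms were measured, with the 5p arm and then the 3p arm in capitals.
Mir34b hairpin: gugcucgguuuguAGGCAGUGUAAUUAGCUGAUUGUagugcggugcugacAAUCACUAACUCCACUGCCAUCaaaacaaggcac

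The family lies at 3 places in the mouse genome, given here in GRCm38 coordinates. Mir34a is at chr4:150068454-150068555 on the plus strand, within an exon of Gm37795, an unclassified gene model. Mir34b (chr9:51103562-51103645) and Mir34c (chr9:51103034-51103110) lie 451 bases apart on the minus strand. They are antisense to Btg4, a gene of the BTG antiproliferative family, and fall within 1 of its introns. Mir449c (chr13:113035983-113036091) and Mir449a (chr13:113037534-113037624) are on the plus strand in an intron of Cdc20b and on the strand of that gene, 1442 bases apart.

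The depth differed between the libraries. The reads on listed miRNAs ranged from 7075528 to 13397407 in the prepuberal and cultured libraries and came to 1628770 in TAD. The lowest listed value was 5 reads in all libraries but T10, where it was 7, so an entry at 0 may stand for up to 4 reads, and folds against such an entry were taken against 5 reads as lower bounds. The 5 listed epithelial miRNAs did not move together. In T6-12K miR-141-3p was at 126 CPM against 0 to 15.3 CPM in the other libraries, and miR-205-5p at 20.9 CPM against 0 to 2.16 CPM. The other 3 were lower in T6-12K than in the other cultures, with 13.3 against 32.3 to 42.2 CPM for miR-200a-3p, 48.3 against 58.6 to 84.2 CPM for miR-200b-3p and 97.1 against 163 to 284 CPM for miR-429-3p. The gonadal miR-202-5p was present in every library at 86.2 to 228 CPM.

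The family took up a larger part of the listed miRNA reads in the adult than in the prepuberal testis. Its 7 arms summed to 99.8 CPM in T6 and 229 CPM in T10. T6-12K held 646 CPM and T6-12A 1551 CPM, T10-12K held 2048 CPM and T10-12A 1928 CPM, and TAD held 25937 CPM. All 4 cultures therefore stood above both uncultured prepuberal testes and below the adult testis. TAD was 260-fold above T6 and 113-fold above T10. The cultures were 6.47-fold (T6-12K) and 15.5-fold (T6-12A) above T6, and 8.96-fold (T10-12K) and 8.43-fold (T10-12A) above T10. As a share of listed reads the family made up 0.00998% (95% exact Clopper-Pearson interval 0.00945 to 0.0105%) in T6 and 2.59% (2.57 to 2.62%) in TAD. In whole testis, more cells that hold a miRNA and more of it per cell cannot be told apart, and this applies to every level below.

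**Figure D1:**
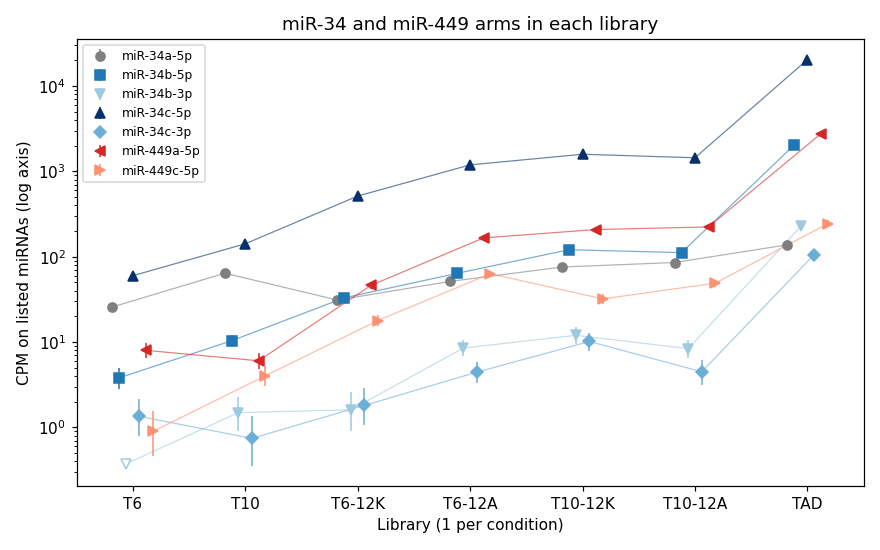
Level of each arm in CPM on a log axis against library, with 95% counting intervals and thin lines joining the points of an arm; the open symbol marks miR-34b-3p in T6, listed at 0 and drawn at the value of 5 reads. miR-34c-5p stands highest in every library, from 59.9 CPM in T6 to 20424 CPM in TAD, and miR-34a-5p has the flattest line.

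The Mir34b and Mir34c hairpins gave the most reads of the family. miR-34c-5p measured 59.9 CPM in T6 (801 reads), 142 CPM in T10 (1898 reads) and 20424 CPM in TAD (33266 reads). The 6.5 dpp explants had 514 CPM with KSR (5104 reads) and 1193 CPM with AlbuMAX I (12875 reads), and the 10.5 dpp explants had 1588 CPM with KSR (11239 reads) and 1445 CPM with AlbuMAX I (12214 reads). It was the leading arm of the family in all 7 libraries, and the counting intervals of no neighbouring libraries in this order overlapped. Among all listed miRNAs it ranked 142nd in T6, 107th in T10, between 34th and 46th in the cultures and 7th in TAD.

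miR-34b-5p, from the neighbouring hairpin, measured 3.82 CPM at 6.5 dpp (51 reads), 10.4 CPM at 10.5 dpp (139 reads) and 2026 CPM in the adult (3300 reads) without culture. Explants in KSR had 33.0 CPM when started at 6.5 dpp (328 reads) and 121 CPM when started at 10.5 dpp (856 reads), and those in AlbuMAX I had 63.7 CPM (688 reads) and 112 CPM (945 reads). It followed the same order as miR-34c-5p at a lower level, and only the counting intervals of the 10.5 dpp cultures overlapped. Its rank went from 295th in T6 to 39th in TAD.

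The 3p arms of both hairpins were close to the detection limit before culture. miR-34b-3p was listed at 0 in T6 and measured 1.49 CPM in T10 (20 reads) and 227 CPM in TAD (370 reads). T6-12K had 1.61 CPM (16 reads), T6-12A 8.52 CPM (92 reads), T10-12K 12.0 CPM (85 reads) and T10-12A 8.40 CPM (71 reads). The counting intervals of T6-12K and T10 overlapped, and so did those of neighbours among the other 3 cultures, although the direct ratio of T10-12A over T10-12K was below 1 beyond counting error (log2 -0.52, -0.99 to -0.04). miR-34c-3p measured 1.35 CPM in T6 (18 reads), 0.746 CPM in T10 (10 reads) and 106 CPM in TAD (173 reads). After culture T6-12K had 1.81 CPM (18 reads) and T6-12A 4.45 CPM (48 reads), while T10-12K had 10.2 CPM (72 reads) and T10-12A 4.50 CPM (38 reads). The counting intervals of T10, T6 and T6-12K overlapped from neighbour to neighbour for this arm, while the other 3 cultures lay above them and TAD above all.

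The Mir449 arms were also low before culture. miR-449a-5p measured 8.01 CPM in T6 (107 reads), 6.05 CPM in T10 (81 reads) and 2771 CPM in TAD (4514 reads). The 6.5 dpp explants had 46.3 CPM with KSR (460 reads) and 166 CPM with AlbuMAX I (1796 reads), and the 10.5 dpp explants had 208 CPM with KSR (1475 reads) and 224 CPM with AlbuMAX I (1891 reads). The intervals of T6 and T10 overlapped, as did those of the 10.5 dpp cultures, whose direct ratio barely excluded 0 on the log2 scale (0.10, 0.0029 to 0.20), and the other neighbours were apart. Its rank was 256th at 6.5 dpp, 281st at 10.5 dpp and 33rd in TAD, where it was the second arm of the family.

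miR-449c-5p measured 0.898 CPM at 6.5 dpp (12 reads), 4.03 CPM at 10.5 dpp (54 reads) and 244 CPM in the adult (397 reads) without culture. Explants in KSR had 17.9 CPM when started at 6.5 dpp (178 reads) and 32.1 CPM when started at 10.5 dpp (227 reads), and those in AlbuMAX I had 63.3 CPM (683 reads) and 49.1 CPM (415 reads). For this arm both AlbuMAX I cultures lay above both KSR cultures, and T6-12A was the highest culture, an order that no other member had. The intervals of all neighbours were apart.

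miR-34a-5p varied least. It measured 25.8 CPM in T6 (345 reads), 64.3 CPM in T10 (861 reads) and 138 CPM in TAD (225 reads). After culture T6-12K had 31.1 CPM (309 reads) and T6-12A 51.4 CPM (555 reads), while T10-12K had 75.9 CPM (537 reads) and T10-12A 85.7 CPM (724 reads). The cultures from 6.5 dpp testis lay below the uncultured 10.5 dpp testis, so the CPM values of uncultured prepuberal and cultured libraries overlapped for this member alone. The counting intervals of T6 and T6-12K overlapped, as did those of T10-12K and T10-12A, but the interval of the log2 ratio excluded 0 narrowly for both pairs (0.27, 0.04 to 0.49, for T6-12K over T6 and 0.17, 0.01 to 0.34, for T10-12A over T10-12K). TAD was highest in CPM, but it had the fewest reads of this arm, and with reads left unscaled it was the lowest library.

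The members other than miR-34a-5p thus followed 1 order. In CPM, T6 and T10 lay below all 4 cultures and all cultures lay below TAD for 6 of 7 members, the exception being miR-34a-5p, while 5.44% of all listed miRNAs showed that order. All 7 members were highest in TAD, as were 29.3% of listed miRNAs. The order held for the same 6 members with the values as deposited and without T6-12K, against 5.14% and 7.25% of miRNAs. Under trimmed-mean scaling it held for all 7 members, against 8.46% of miRNAs. With reads left unscaled it held for 3 members (miR-34b-5p, miR-34c-5p and miR-449a-5p), against 2.42%. The deposited list leaves out miRNAs below a read cut. Before culture miR-34b-3p was listed at 0 in T6 and 20 reads in T10, and miR-34c-3p at 18 and 10 reads. Both may be listed only for their reads in cultures or TAD, which would favour this order and the 2-fold counts below. The part of the cut in these counts was not tested. The other members in the CPM order had 54 to 1898 reads in T10.

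The first comparison, of uncultured T10 with T6, concerned the first days of the spermatogenic wave. Of the 7 members, 5 were at least 2-fold higher at 10.5 dpp, against 11% of the 326 miRNAs compared, and none was 2-fold lower, against 4.29%. The median log2 ratio was 1.32 for the members and -0.06 for all. miR-449c-5p was 4.49-fold higher (log2 2.17, interval 1.25 to 3.20), miR-34b-5p 2.72-fold (log2 1.44, 0.97 to 1.94), miR-34a-5p 2.49-fold and miR-34c-5p 2.36-fold (log2 1.24, 1.12 to 1.36). miR-34b-3p was at least 3.99-fold higher. The other 2 members did not share this direction. miR-449a-5p had a log2 ratio of -0.41 (-0.84 to 0.02) and miR-34c-3p one of -0.85 (-2.13 to 0.34), and both intervals include 0.

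Culture for 12 days was compared with the uncultured testis of the same starting age. From 6.5 dpp, 5 of 7 members were at least 2-fold higher in T6-12K than in T6, against 10.9% of all miRNAs compared, and 6 of 7 in T6-12A, against 12.4%. From 10.5 dpp, 6 of 7 were at least 2-fold higher in T10-12K than in T10, against 8.21%, and 6 of 7 in T10-12A, against 10.6%. No member was 2-fold lower in any of the 4 cultures, where 57.1% (T6-12K), 37.9% (T6-12A), 40.1% (T10-12K) and 41.4% (T10-12A) of miRNAs were. miR-34b-5p, miR-34b-3p, miR-34c-5p, miR-449a-5p and miR-449c-5p passed 2-fold in every culture, as did 5.74% of listed miRNAs.

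miR-34c-5p was 8.57-fold above T6 in T6-12K (log2 3.10, 2.99 to 3.21) and 19.9-fold in T6-12A (log2 4.31, 4.21 to 4.42). Above T10 it was 11.2-fold in T10-12K (log2 3.49, 3.42 to 3.56) and 10.2-fold in T10-12A (log2 3.35, 3.28 to 3.42). The 10.5 dpp cultures thus showed similar ratios in both media, while the 6.5 dpp cultures did not. miR-34b-5p gave 8.65-fold and 16.7-fold at 6.5 dpp, and 11.7-fold and 10.8-fold at 10.5 dpp, in KSR and AlbuMAX I respectively. Its hairpin partner miR-34b-3p gave at least 4.30-fold and at least 22.8-fold at 6.5 dpp, and 8.05-fold and 5.63-fold at 10.5 dpp.

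In each culture a Mir449 arm gave the highest ratio of the family. miR-449a-5p was 34.5-fold above T10 in T10-12K (log2 5.11, 4.78 to 5.45) and 37.0-fold in T10-12A (log2 5.21, 4.89 to 5.55), which ranked 4th among all miRNAs compared in both cultures. Above T6 it was 5.78-fold in T6-12K and 20.8-fold in T6-12A. miR-449c-5p was 20.0-fold above T6 in T6-12K (log2 4.32, 3.48 to 5.30) and 70.5-fold in T6-12A (log2 6.14, 5.32 to 7.10), and 7.96-fold and 12.2-fold above T10. The 12 reads of this arm in T6 set the width of its intervals.

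miR-34a-5p gave the lowest ratio of the family in every culture, and miR-34c-3p the next lowest from 6.5 dpp. miR-34c-3p was 1.35-fold above T6 in KSR (log2 0.43, -0.60 to 1.45) and 3.30-fold in AlbuMAX I, and 13.6-fold and 6.02-fold above T10. miR-34a-5p reached 2-fold in no culture. Its ratios were 1.20 (KSR) and 1.99 (AlbuMAX I) over T6 and 1.18 (KSR) and 1.33 (AlbuMAX I) over T10, and with unscaled reads the T6-12K, T10-12K and T10-12A ratios turned below 1, as did that of T10-12K with the deposited values. Relative to the median of all miRNAs, which on the log2 scale was -1.21 and -0.63 for the 6.5 dpp explants and -0.76 and -0.78 for the 10.5 dpp explants, in KSR and AlbuMAX I respectively, all 7 members stood higher in all cultures. The medians of the members were 2.53, 4.31, 3.49 and 3.35 in that order.

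**Figure D2:**
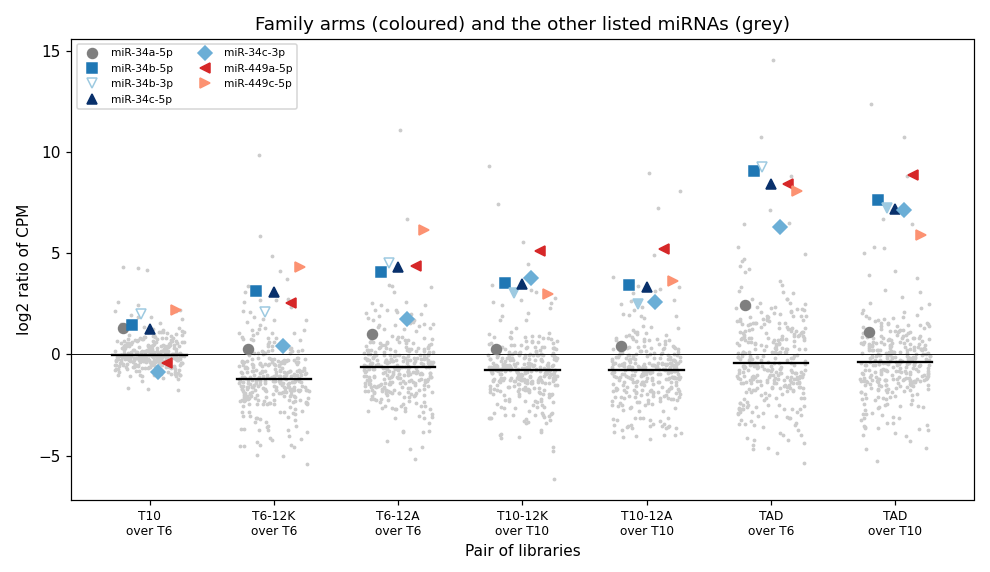
log2 ratio of CPM for 7 pairs of libraries, with the family arms as coloured symbols (open where the lower library is listed at 0, drawn as a bound), the other listed miRNAs as grey points and the median of all as a black bar. In the culture and adult pairs all 7 arms lie above the median bar; for T10 over T6, miR-34c-3p (-0.85) and miR-449a-5p (-0.41) lie below it.

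T6-12K differed from the other cultures in both directions among the epithelial miRNAs named above, and their part in the family values was not tested. Together they summed to 104 CPM at 6.5 dpp, 200 CPM at 10.5 dpp and 254 CPM in the adult. They summed to 305 CPM in T6-12K and 266 CPM in T6-12A, and to 306 CPM in T10-12K and 401 CPM in T10-12A. The family was lower in T6-12K than in the other 3 cultures, and the mean of the 6.5 dpp cultures and T6-12A alone gave the same count of members at least 2-fold above T6, 6 of 7. The background for that mean was 13%. For the mean of the 10.5 dpp cultures the count was also 6 of 7, with a background of 9.67%. T6-12K stood apart outside the epithelial list too. The erythroid miR-486a-5p was at 2554 CPM there, against 445 CPM in T6-12A, 564 CPM in T10-12K and 762 CPM in T10-12A. Its part in the family values was not tested either.

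The media were then compared at each starting age. At 6.5 dpp all 7 members were higher in AlbuMAX I than in KSR, as were 76.6% of all miRNAs, and 5 of them were higher by at least 2-fold, against 27.4% of all miRNAs. The median of all miRNAs also stood higher in T6-12A, at 0.64 on the log2 scale, against 1.30 for the members. miR-34b-3p differed most, with 8.52 against 1.61 CPM (5.29-fold, log2 2.40, 1.63 to 3.27). miR-449a-5p followed at 3.59-fold (log2 1.85, 1.70 to 2.00), then miR-449c-5p at 3.53-fold (log2 1.82, 1.58 to 2.07), miR-34c-3p at 2.45-fold and miR-34c-5p at 2.32-fold (log2 1.22, 1.17 to 1.26). miR-34b-5p at 1.93-fold and miR-34a-5p at 1.65-fold stayed under 2-fold. The count was 3 of 7, with no share of all miRNAs given, when miR-10b-5p and miR-143-3p were left out of the totals. It was likewise 3 of 7 under trimmed-mean or median-of-ratios scaling. The median of all miRNAs was 0.23 without those miRNAs, 0.17 under trimmed-mean and 0.08 under median-of-ratios scaling. The members had 0.89, 0.83 and 0.74 in that order. The 27.4% counted in CPM is therefore not the background for a count of 3 of 7. Each of these values rests on T6-12K.

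At 10.5 dpp the log2 ratios of AlbuMAX I over KSR lay between -1.18 and 0.61. No member was 2-fold higher in AlbuMAX I, against 5.64% of miRNAs, and miR-34c-3p was lower, 4.50 against 10.2 CPM (log2 -1.18, -1.79 to -0.59), against 5.64% of miRNAs in that direction. miR-34c-5p had a log2 ratio of -0.14 (-0.17 to -0.10) in CPM and of 0.12 with unscaled reads. miR-34b-5p had -0.11 (-0.25 to 0.02), miR-34b-3p -0.52 (-0.99 to -0.04), miR-449a-5p 0.10 (0.0029 to 0.20) and miR-34a-5p 0.17 (0.01 to 0.34). miR-449c-5p was higher in AlbuMAX I at 1.53-fold (log2 0.61, 0.38 to 0.85). In CPM the 4 arms of the Mir34b and Mir34c hairpins pointed to opposite media at the 2 ages, as did 47.4% of listed miRNAs, but miR-34b-5p and miR-34c-5p no longer did so with unscaled reads.

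**Figure D3:**
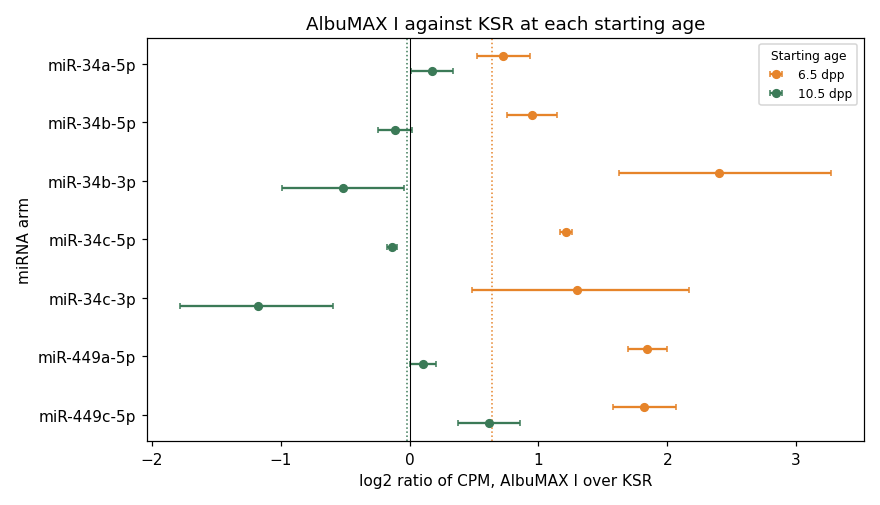
log2 ratio of CPM, AlbuMAX I over KSR, for each arm at 6.5 dpp (orange) and 10.5 dpp (green) with 95% counting intervals; dotted lines are the medians of all listed miRNAs, 0.64 and -0.02. All 7 orange points lie above 0.64, and the green points lie between -1.18 and 0.61.

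The starting age was also compared within each medium. In KSR, 6 of 7 members were at least 2-fold higher from 10.5 dpp than from 6.5 dpp, against 23.4% of miRNAs, the exception being miR-449c-5p at 1.79-fold. These ratios all rest on T6-12K, and the median of all miRNAs stood at 0.49 on the log2 scale, against 1.87 for the members. miR-34b-3p led at 7.46-fold (log2 2.90, 2.12 to 3.77), the highest ratio of the 316 miRNAs compared, and miR-34c-3p ranked 3rd at 5.62-fold. In AlbuMAX I no member differed by 2-fold, while 7.41% of miRNAs were higher and 9.26% lower by that much. There miR-34b-5p was 1.75-fold higher (log2 0.81, 0.67 to 0.95), miR-34c-3p had a log2 ratio of 0.02 (-0.64 to 0.66) and miR-449c-5p one of -0.37 (-0.55 to -0.19).

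The adult testis was compared with the mean of T6 and T10. All 7 members were at least 2-fold higher in TAD, against 21.5% of the 331 miRNAs (36.3% were 2-fold lower), with a median log2 ratio of 7.66 for the members and -0.41 for all. The other members, without miR-34a-5p, took ranks 4 to 7, 9 and 10 in the table. miR-449a-5p was 394-fold higher (log2 8.62, 8.41 to 8.83), miR-34b-5p 286-fold (log2 8.16, 7.95 to 8.37), miR-34c-5p 203-fold (log2 7.66, 7.61 to 7.72), miR-34c-3p 101-fold (log2 6.67, 6.09 to 7.24) and miR-449c-5p 98.9-fold (log2 6.63, 6.25 to 7.00). miR-34b-3p was at least 243-fold higher. miR-34a-5p was 3.07-fold higher in CPM (log2 1.62, 1.41 to 1.82) and lower with unscaled reads (log2 -1.42).

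TAD was also set against each culture. All 7 members were at least 2-fold higher in TAD than in T6-12K and T6-12A, against 44.7% and 36.1% of miRNAs. The count was 6 of 7 against T10-12K and T10-12A, with 38.1% and 33.8% of miRNAs, and miR-34a-5p was the exception at 1.82-fold and 1.61-fold, both of which turned below 1 with unscaled reads. miR-34c-5p in TAD was 39.8-fold above T6-12K, 17.1-fold above T6-12A, 12.9-fold above T10-12K and 14.1-fold above T10-12A. miR-449c-5p came closest among the members other than miR-34a-5p, with 13.6-fold, 3.85-fold, 7.60-fold and 4.96-fold, and with unscaled reads T6-12A and T10-12A lay above TAD.

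On the log2 scale of CPM each culture can be placed on the way from its starting testis to TAD. miR-34c-5p had covered 36.8% (KSR) and 51.3% (AlbuMAX I) of that distance from 6.5 dpp, and 48.6% (KSR) and 46.7% (AlbuMAX I) from 10.5 dpp. miR-449a-5p had covered 30.0%, 51.9%, 57.8% and 58.9%, and miR-449c-5p 53.4%, 75.9%, 50.6% and 60.9%, in the same order. miR-34a-5p had covered 11.1%, 41.1%, 21.7% and 37.5% of a much shorter distance. These positions depend on the scaling. With unscaled reads TAD lay below T6 and T10 for miR-34a-5p (log2 -0.62 and -1.94). For miR-449c-5p it lay below T6-12A (log2 -0.78).

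Ratios within a library do not depend on the scaling between libraries. For every 100 reads of miR-34c-5p there were 6.37 reads of miR-34b-5p in T6, 7.32 reads in T10 and 9.92 reads in TAD. In the explants there were 6.43 (T6-12K), 5.34 (T6-12A), 7.62 (T10-12K) and 7.74 (T10-12A). This ratio stayed between 5.34 and 9.92 while the CPM of miR-34c-5p differed by 341-fold and that of miR-34b-5p by 531-fold between T6 and TAD, and its value in TAD (9.57 to 10.3) lay above the intervals of the other libraries. The sequence of miR-34c-5p was not compared, and how reads matching both arms were assigned was not given. Reads of miR-34c-5p counted as miR-34b-5p therefore cannot be told apart from a kept ratio. The 2 loci on different chromosomes also kept a narrow ratio in most libraries. miR-449a-5p stood at 13.4 per 100 reads of miR-34c-5p in T6 and at 13.6 in TAD. T6-12K had 9.01 and T6-12A 13.9, T10-12K had 13.1 and T10-12A 15.5, but T10 had only 4.27 (3.37 to 5.33).

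Within the Mir449 cluster the ratio was not kept. For every 100 reads of miR-449a-5p there were 11.2 reads of miR-449c-5p at 6.5 dpp (5.62 to 20.4), 66.7 at 10.5 dpp (46.3 to 95.2) and 8.79 in the adult (7.92 to 9.75). The explants gave 38.7 (T6-12K) and 38.0 (T6-12A) from 6.5 dpp, and 15.4 (T10-12K) and 21.9 (T10-12A) from 10.5 dpp. The ratio was highest in T10, near equal in both 6.5 dpp cultures, and lowest in TAD. The interval of T6 overlapped those of TAD, T10-12K (13.3 to 17.7) and T10-12A (19.7 to 24.4), so T6 could not be placed among them.

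miR-34a-5p parted from miR-34c-5p. Per 100 reads of miR-34c-5p it had 43.1 reads in T6 (37.9 to 48.9) and 45.4 in T10 (41.8 to 49.2), between 4.31 (T6-12A) and 6.05 (T6-12K) in the explants, and 0.676 in TAD (0.591 to 0.771). The 3 levels of this ratio, uncultured prepuberal, cultured and adult, did not overlap.

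**Figure D4:**
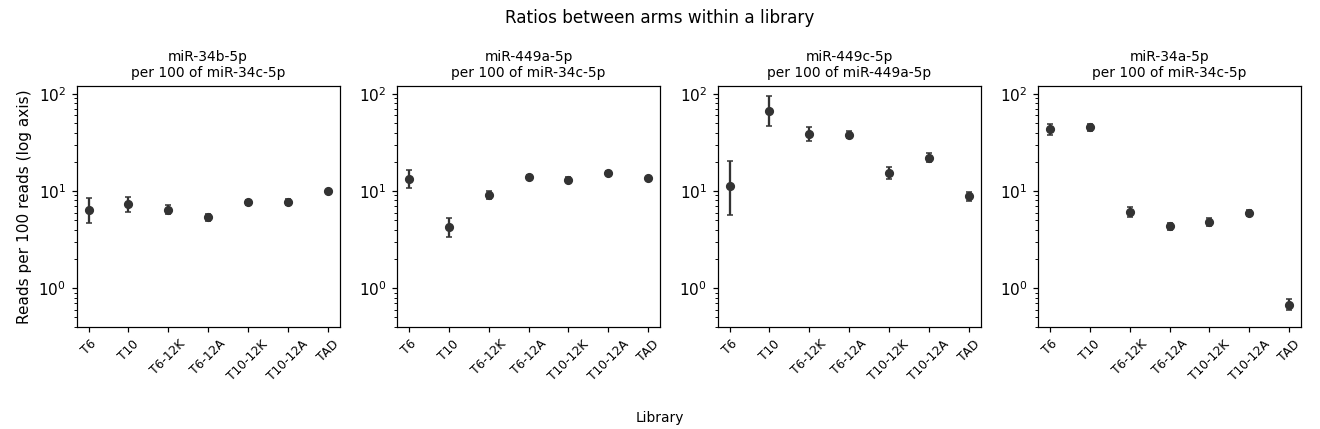
Reads of one arm per 100 reads of another within each library, on a log axis with 95% counting intervals. miR-34b-5p and miR-34c-5p keep a ratio of 5.34 to 9.92, miR-449c-5p against miR-449a-5p spans 8.79 to 66.7, and miR-34a-5p against miR-34c-5p goes from 45.4 in T10 to 0.676 in TAD.

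The makeup of the family differed accordingly. Mir34a gave 25.9% of the family reads at 6.5 dpp, 28.1% at 10.5 dpp, 3.32 to 4.82% in the cultures and 0.533% in the adult. The Mir34b and Mir34c hairpins gave 65.2% in T6, 67.5% in T10, 81.4 to 85.2% in the cultures and 87.8% in TAD. The Mir449 arms gave 8.92% in T6, 4.41% in T10, 9.95 to 14.8% in the cultures and 11.6% in TAD. miR-34c-5p alone held 60.0 to 79.6% of family reads, and the 5p arms together held at least 98.7% in every library.

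**Figure D5:**
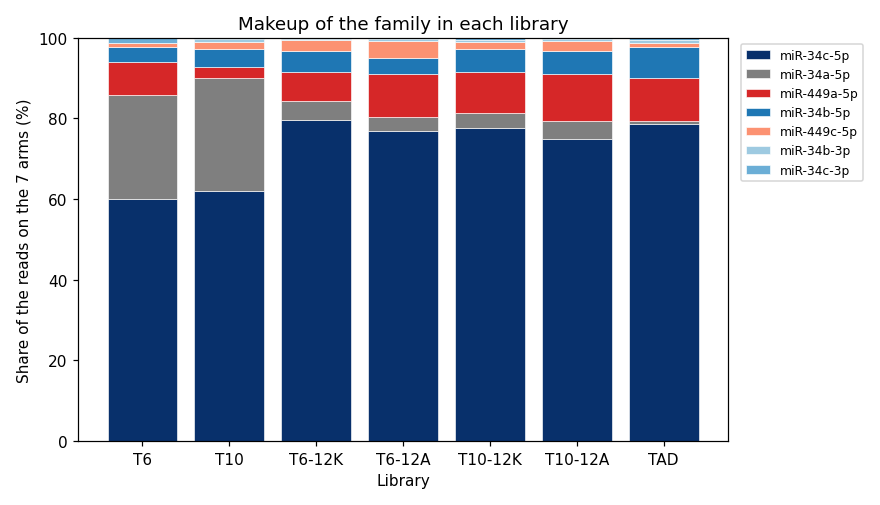
Share of the reads on the 7 arms held by each arm, in percent, for each library; the stacked parts of a bar add to 100%. The grey part, miR-34a-5p, shrinks from 25.9% and 28.1% before culture to 0.533% in TAD, while miR-34c-5p holds 60.0 to 79.6%.

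The 5p arm led at both hairpins with 2 measured arms. miR-34b-3p stood at no more than 9.80 per 100 reads of miR-34b-5p in T6, at 14.4 in T10, at 4.88 (T6-12K) to 13.4 (T6-12A) in the explants and at 11.2 in TAD. miR-34c-3p was rarer, at 2.25 per 100 reads of miR-34c-5p in T6 (1.32 to 3.57) and 0.311 to 0.641 in the other libraries. The neighbouring hairpins therefore differed in arm use: in TAD miR-34b-3p had 370 reads and miR-34c-3p 173 reads, while miR-34c-5p had 10.1 times the reads of miR-34b-5p.

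Likeness of pattern was measured as the root mean square difference between log2 CPM profiles over the 7 libraries, each centred on its mean. Of the 330 other miRNAs the most like miR-34c-5p was miR-34b-5p (0.26), followed by miR-34b-3p (0.57), with miR-449a-5p 4th (0.60), miR-449c-5p 6th (0.70) and miR-34c-3p 8th (0.89). The 5 non-members most like it were miR-7214-5p (0.60), miR-468-5p (0.62), miR-375-3p (0.70), miR-7230-5p (1.17) and miR-6412 (1.19), of which miR-7214-5p, miR-468-5p and miR-7230-5p were listed at 0 in both T6 and T10. miR-375-3p, known from endocrine cells and from the testis, measured 99.8 CPM at 6.5 dpp, 86.7 CPM at 10.5 dpp, 210 to 778 CPM in the explants and 9015 CPM in the adult. miR-34a-5p ranked only 26th in likeness to miR-34c-5p (1.94). The non-members most like miR-34a-5p were miR-547-3p (0.22), miR-203-3p (0.26), miR-204-5p (0.30), miR-201-5p (0.32) and miR-194-5p (0.36), and the other 6 members ranked 278th to 322nd of 330. All profiles share the same 7 library totals. How reads matching several members were assigned was not given, and its part in the likeness of miR-34b-5p to miR-34c-5p was not tested.

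Other miRNAs linked to p53, as targets or through processing, were listed in full (8 of 8, of which miR-143-3p and miR-145a-5p are also smooth muscle miRNAs). In TAD against the mean of T6 and T10, 4 of them were at least 2-fold higher and none 2-fold lower, where 21.5% of all miRNAs were higher and 36.3% lower, with a median log2 ratio of 0.92, against 1.62 for miR-34a-5p. Of those that were higher, miR-194-5p had 5.39 CPM in T6, 7.09 CPM in T10 and 20.3 CPM in TAD, and miR-215-5p had 3.44, 4.18 and 29.5 CPM. Under 2-fold in the other direction, miR-107-3p had 282, 342 and 195 CPM and miR-145a-5p 106, 91.0 and 83.5 CPM. In the mean of the 6.5 dpp cultures none was 2-fold higher and 2 were lower, against 13% and 46.1% of all miRNAs, and in the mean of the 10.5 dpp cultures none was higher and 1 lower, against 9.67% and 40.8%. Taken singly, T6-12K and T10-12A each had 1 of these miRNAs at least 2-fold higher, against 10.9% and 10.6% of all miRNAs. T6-12A and T10-12K had none, against 12.4% and 8.21%. At least 2-fold lower were 2 in T6-12K and 1 in each other culture. The shares of all miRNAs lower were 57.1% (T6-12K), 37.9% (T6-12A), 40.1% (T10-12K) and 41.4% (T10-12A). Of the miRNAs known from male germ cells 8 of 10 were listed, and 6 of them were at least 2-fold higher in TAD and none 2-fold lower, against the same 21.5% and 36.3%, with a median log2 ratio of 1.73 against 7.66 for the family. From 6.5 dpp, 1 was higher in each culture, where 10.9% (T6-12K) and 12.4% (T6-12A) of all miRNAs were higher. There 6 were lower in T6-12K and 2 in T6-12A, against 57.1% and 37.9% of all miRNAs. From 10.5 dpp, 2 were higher in each culture, where 8.21% (T10-12K) and 10.6% (T10-12A) of all miRNAs were higher. There 3 were lower in T10-12K and 2 in T10-12A, against 40.1% and 41.4% of all miRNAs.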

How the data were processed

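Small RNA of 7 testis libraries was sequenced by the authors, 1 library per condition. According to the study's methods, adaptors were trimmed, quality was assessed with FastQC, reads were mapped with Bowtie to mm10 and then to miRBase 21, and miRNAs under 50 reads were discarded. How that cut was applied across libraries was not given, and listed miRNAs hold fewer reads in single libraries. miR-34b-3p reached 50 reads only in T6-12A, T10-12K, T10-12A and TAD, and miR-34c-3p only in T10-12K and TAD. HTSeq and DESeq are also named in the submitters' processing notes, without a role or version. The treatment of reads matching several mature sequences was not given in the sources used here. The study's methods give 2 testis explants per RNA isolation.

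The deposited values were a signal, read counts multiplied by 1 factor per library. Dividing each value by the worth of 1 read (0.615 in T6 to 3.19 in TAD) gave whole reads for 100% of values in every library, within a tolerance of 0.1 read. CPM was computed from these reads over all listed miRNAs, with 7075528 to 13397407 reads in the prepuberal and cultured libraries and 1628770 in TAD. A value at 0 was set to 5 reads in ratios. Intervals were exact (Clopper-Pearson for shares, conditional binomial for ratios), or by the delta method for means of 2 libraries. No count model was fitted and no test was made. A member was counted as higher or lower at 2-fold, beside the percentage of all miRNAs past that fold.

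All arms the name rule takes were reported. Beside them the text names the 5 non-members most like miR-34c-5p and miR-34a-5p and the lists of epithelial, erythroid, leukocyte, endothelial, smooth muscle, pluripotency, gonadal, p53-linked and germline miRNAs. The members and lists were chosen with earlier results of these data known. Alternatives were 5 other scalings (values as deposited, totals without miR-10b-5p and miR-143-3p, unscaled reads, median-of-ratios factors and the trimmed mean of M-values), 1 read for values at 0, thresholds of 1.5-fold and 4-fold, a filter at a mean of 100 CPM, another likeness measure and other adult references. Leaving out T6-12K, and repeating the order of libraries under the scalings, were chosen after seeing the data. Sequences were from RefSeq (GRCm38.p6) and loci from GENCODE mouse release 21 on GRCm38. Computation used scipy 1.17.1, pandas 2.3.3 and numpy 2.4.6 under Python 3.11.15, with matplotlib 3.10.9 for plots, and was tested on simulated data.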

Additional observations from a re-analysis of the deposited data

Results flagged for a closer look

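Members whose ratio went in opposite directions in paired settings, with both counting intervals excluding 0, were singled out. With 1 library per condition, the difference was not tested for any of them. The log2 ratio of AlbuMAX I over KSR was 2.40 at 6.5 dpp and -0.52 at 10.5 dpp for miR-34b-3p, a gap of 2.92. For miR-34c-3p it was 1.30 and -1.18, a gap of 2.47, with 18, 48, 72 and 38 reads in T6-12K, T6-12A, T10-12K and T10-12A. For miR-34c-5p it was 1.22 and -0.14, a gap of 1.35, and the value at 10.5 dpp turned to 0.12 with unscaled reads. The 6.5 dpp values rest on T6-12K. Without the condition on intervals, the media pointed in opposite directions at the 2 ages for 4 of 7 members and for 47.4% of listed miRNAs. The median of all miRNAs was itself 0.64 at 6.5 dpp and -0.02 at 10.5 dpp. The log2 ratio of 10.5 over 6.5 dpp for miR-449c-5p was 0.84 in KSR and -0.37 in AlbuMAX I, a gap of 1.21. The median of all miRNAs was 0.49 in KSR and -0.14 in AlbuMAX I, and the share of all miRNAs with opposite directions was not counted here.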

How the results depend on the processing

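No paired analysis was possible because each condition has 1 library and the replicate numbers are only names. Of the counts and medians that answer a comparison, 134 of the alternative values stayed within 1.5 times the count or within counting error of the median, 27 moved and none reversed; the movements of scaling follow from its construction, which shifts all miRNAs alike. T10 over T6 had a median log2 ratio of 1.08 under the trimmed mean of M-values (TMM), with 1 member 2-fold lower. In CPM, 1 was lower at 1.5-fold, against 13.5% of miRNAs, and 1 higher at 4-fold, against 3.07%. For 2-fold counts under other scalings, here and below, the share of all miRNAs is not given. The 6.5 dpp cultures had a median of 4.27 without miR-10b-5p and miR-143-3p, 3.40 unscaled, 4.30 with median-of-ratios factors and 4.38 with TMM; the 10.5 dpp cultures had 2.57 unscaled, 3.89 with median-of-ratios factors and 4.10 with TMM. T6-12A over T6-12K had 3 members higher without those 2 miRNAs, with median-of-ratios factors and with TMM. In CPM it had 1 higher at 4-fold, against 4.98% of miRNAs. T10-12A over T10-12K had a median of 0.14 and 0 members lower unscaled. In CPM it had 0 lower at 4-fold, against 0.94% of miRNAs, and 1 higher at 1.5-fold, against 14.1%. TAD over the mean of T6 and T10 had a median of 6.95 as deposited, 4.62 unscaled with 1 member lower, 7.85 with median-of-ratios factors, 7.76 with TMM, 8.41 against T6 alone and 7.17 against T10 alone. Unscaled, 3 members kept the order of libraries, as did 2.42% of listed miRNAs. Across these scalings the gap between the median of the members and that of all miRNAs stayed at 1.37 for T10 over T6. Scaling cannot change this gap for a single pair of libraries. The gap was 4.55 to 4.69 and 4.09 to 4.12 for the 6.5 and 10.5 dpp cultures. It was 8.07 to 8.12 for TAD over the mean of T6 and T10. Scaling can move these only through the means of 2 libraries.

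Of single members, 17 values reversed. Unscaled, miR-34a-5p had log2 ratios of -0.16 for T6-12K over T6, -0.68 for T10-12K over T10, -0.25 for T10-12A over T10 and -0.45 for their mean, and TAD over the mean, T6, T10, T6-12K, T6-12A, T10-12K and T10-12A gave -1.42, -0.62, -1.94, -0.46, -1.30, -1.26 and -1.69; as deposited, T10-12K over T10 gave -0.090. miR-34c-5p gave 0.12 for T10-12A over T10-12K unscaled, and for T10-12A over T6-12A it gave -0.019 as deposited and -0.076 unscaled. miR-449c-5p unscaled gave -0.78 for TAD over T6-12A and -0.064 for TAD over T10-12A. With a filter at a mean of 100 CPM, 1 of the 5 miRNAs named for likeness to miR-34c-5p and 4 of the 5 for miR-34a-5p remained among the first 5. The 1628770 reads of TAD and the 10 to 20 reads of the rarest arms before culture limit what can be resolved.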

Other observations

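The lists of other cell types gave these values. Of the erythroid miRNAs (3 of 3 listed), miR-451a was at 8.98 CPM at 6.5 dpp, 6.87 CPM at 10.5 dpp and 3.68 CPM in the adult. Both miR-451a and miR-144-3p were listed at 0 in all 4 cultures. miR-486a-5p was at 445 to 2554 CPM in every library, highest in T6-12K. Leukocyte miRNAs (2 of 4 listed) summed to 5.54 to 45.4 CPM, endothelial miRNAs (2 of 2) to 124 to 405 CPM and gonadal somatic miRNAs (2 of 2) to 93.7 to 234 CPM. Smooth muscle and peritubular miRNAs (3 of 3), nearly all miR-143-3p, summed to 104001 CPM in T6 and 258433 CPM in TAD. Of the pluripotency miRNAs 1 of 6 was listed, miR-295-3p, at 16.8 CPM in T6, 8.21 in T10, 3.42 to 5.28 in the cultures and 30.1 in TAD.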
